A study of Mus musculus with 6 samples.

Results

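AP-1 is a family of dimeric transcription factors built from JUN proteins and from FOS or ATF proteins. Many of its genes, though not all, belong with Egr1, Ier2 and Ier3 to the immediate early genes. Transcription of immediate early genes starts within minutes of a growth factor, stress or calcium signal and needs no new protein. In endothelium they are induced by VEGF, blood flow and inflammatory signals, and in many tissues they are also induced when cells are dissociated. The 10 genes described here were chosen by symbol: the FOS members Fos, Fosb and Fosl2, the JUN members Jun, Junb and Jund, the related Atf3, and the immediate early genes Egr1, Ier2 and Ier3. All 10 were found among 19124 gene symbols of the deposited table, and all 10 passed the filter on low counts that left 16217 genes to test.

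The libraries came from cells sorted for CD31, a surface protein of endothelium, from retinas of C57BL/6 pups at postnatal day 7. All pups carried the Rnf20p/p allele and received 75 µg of 4-hydroxytamoxifen a day from day 1 to day 4. The 3 Ctrl pups were PdgfβCreERT2neg, without the recombinase, and the 3 KO pups were PdgfβCreERT2pos, with a tamoxifen-inducible recombinase driven by a promoter active in endothelium, so no group carried the recombinase without the Rnf20 allele. Each library came from a different pup. Retinas of both groups were digested with collagenase and stained with the antibody for 30 minutes before sorting, and RNA was amplified as full-length cDNA. The title of the series puts the question as one of Rnf20, a ubiquitin ligase for histone H2B, and the VEGF and Notch circuits of sprouting vessels.

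Values per library are given in the order of replicates 1, 2 and 3. Libraries held between 14581701 and 30692948 counts. Rnf20 itself changed by −0.67 on the log2 scale (KO over Ctrl), short of the threshold in edgeR (adjusted p = 0.101). It was at 47.9, 57.1 and 56.8 CPM (counts scaled to library size) in Ctrl. In KO it was at 39.1, 31.0 and 31.7 CPM, each below every Ctrl library. The cells were not endothelial alone, though endothelial markers were present in every library. The summed level of 14 photoreceptor markers was 19530 to 34890 CPM in Ctrl and 4995 to 24460 CPM in KO. In such bulk libraries fewer cells of a type and less RNA per cell cannot be told apart.

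The promoters of 4 members are shown because their genes stand for the different patterns found: Fos, abundant with overlapping groups, Junb and Ier3, which rose, and Atf3, whose groups did not overlap. RefSeq promoters (GRCm38.p6) were matched for 8 of the 10 members, Egr1 and Ier2 being the others. Each run holds the 250 bases before the annotated transcription start, 5′ to 3′ on the strand of the gene, and capitals mark TGACG, the core of the cAMP response element, and TATAAA, each searched on both strands.
Fos, plus strand, chr12:85473640-85473889: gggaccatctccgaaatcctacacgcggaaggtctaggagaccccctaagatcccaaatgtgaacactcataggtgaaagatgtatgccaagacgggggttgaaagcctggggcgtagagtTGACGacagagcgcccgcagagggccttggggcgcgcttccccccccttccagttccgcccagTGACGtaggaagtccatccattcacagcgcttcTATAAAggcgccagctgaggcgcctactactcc
Junb, minus strand, chr8:84978749-84978998: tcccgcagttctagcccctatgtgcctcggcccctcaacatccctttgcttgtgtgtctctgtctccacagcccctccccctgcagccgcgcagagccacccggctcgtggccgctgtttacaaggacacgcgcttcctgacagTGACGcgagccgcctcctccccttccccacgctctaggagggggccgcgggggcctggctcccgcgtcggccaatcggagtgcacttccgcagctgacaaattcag
Atf3, minus strand, chr1:191183334-191183583: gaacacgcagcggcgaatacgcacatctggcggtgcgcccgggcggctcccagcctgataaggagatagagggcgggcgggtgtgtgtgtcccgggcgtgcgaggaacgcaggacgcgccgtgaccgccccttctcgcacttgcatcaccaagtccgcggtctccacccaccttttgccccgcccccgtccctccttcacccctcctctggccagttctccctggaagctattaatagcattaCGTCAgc
Ier3, plus strand, chr17:35821463-35821712: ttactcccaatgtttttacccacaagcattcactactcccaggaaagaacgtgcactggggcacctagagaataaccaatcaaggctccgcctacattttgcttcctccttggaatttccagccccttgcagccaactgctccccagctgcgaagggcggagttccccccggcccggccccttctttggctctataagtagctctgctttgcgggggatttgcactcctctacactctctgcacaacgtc
The TGACG core was found in 4 of the 8 windows (Fos, Fosb, Junb and Atf3), against 17.8% of 32841 RefSeq promoter windows of the same length. In Fos it began 129 and 66 bases before the start, in Junb 106 bases before it, and in Atf3 it lay on the opposite strand within the last 10 bases. The AP-1 sequence TGANTCA was in 0 of the 8 windows (6.8% of all windows), as was the CArG box bound by serum response factor (1.5%). Only exact matches within these 250 bases were counted, and the windows depend on the annotated start. The Fosb window (19310046 to 19310295) reaches into the span of its gene, which ends at 19310118. Jund has 1668 exonic bases in GENCODE against a deposited length of 2877, and its window has the lowest GC content of the 8 (47.6%). The longer sequence TGACATCA, which the Jun window holds, was not searched, nor were bases farther upstream, so absence of such sites from these genes cannot be concluded. TATAAA was in the Fos window alone among the 8 (12.4% of all windows). The motifs do not overlap one another in these windows.

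Of the 10 genes, 3 were higher in KO, and no member was lower. Junb, Jund and Ier3 passed the quasi-likelihood test of edgeR at an adjusted p of 0.05 over all genes, 3 of 10, where 5.85% of all genes tested were higher. The adjustment is that of Benjamini and Hochberg. The test called 0 members lower, where 4.44% of all genes were lower. At an unadjusted p under 0.05 in edgeR 6 members passed, all higher in KO, where 30.5% of all genes passed in either direction. DESeq2 called 0 members lower, where 1529 of 16114 genes were lower, and limma-voom called 0 members lower, where 923 of 16217 were. All 10 estimates were above 0, with a median log2 fold change of 0.99 against 0.03 over all genes. When the libraries were scaled to equal endothelial markers in place of TMM (edgeR's trimmed mean scaling), which put the median over all genes at −1.20, 7 of the 10 estimates turned negative and all 10 stayed above that median. With this scaling 0 members passed edgeR's test, where 0.469% of all genes were higher and 45.1% lower. At an unadjusted p under 0.05 it had 2 members, Fos and Egr1, both lower in KO, where 53.7% of all genes were lower.

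**Figure D1:**
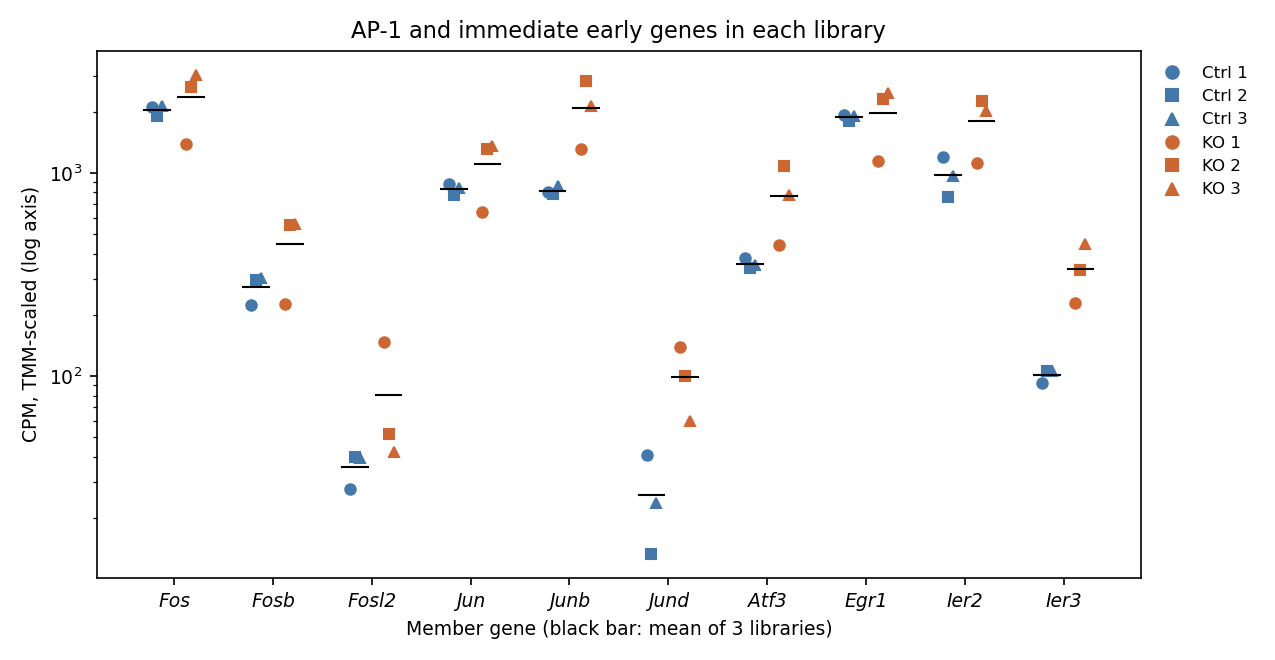
CPM (TMM-scaled, log axis) of the 10 genes in each library, Ctrl in blue and KO in orange, with a black bar at the mean of 3 libraries. The Ctrl libraries lie close together for most genes, whereas KO 1 lies apart from KO 2 and KO 3, below all Ctrl libraries in Fos, Jun and Egr1.

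Ier3, a stress-induced gene that modulates cell survival and NF-κB and ERK signalling (NM_133662, chromosome 17, 35821713 to 35822911), had the smallest p of the 10. It was measured at 92.5, 105.3 and 105.4 CPM in the Ctrl libraries and 227.4, 333.5 and 447.5 CPM in the KO libraries. Each KO library lay at least at 2.25 times the Ctrl mean, and the groups did not overlap. This was a 3.33-fold rise, or 1.73 on the log2 scale (SE 0.296), and it passed edgeR's test (adjusted p = 0.0224). It passed 8 of 14 alternatives (adjusted p from 1.05e-05 to 0.28), GC offsets among them (1.47).

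Junb, a JUN protein that activates less strongly than Jun and can restrain it, was the most abundant of those that rose (NM_008416, chromosome 8, 84976909 to 84978748, a single exon). It reached 802.2, 783.0 and 863.9 CPM in the Ctrl libraries and 1315, 2815 and 2126 CPM in the KO libraries. The groups did not overlap, and KO 1 was the lowest KO library. Junb rose 2.55-fold, by 1.35 on the log2 scale (SE 0.315; edgeR, adjusted p = 0.0371). With offsets for the GC content of each transcript, under which Ier3 alone of the 10 passed (6.63% of all genes were higher), it was 0.64 (edgeR, adjusted p = 0.102, range over 14 alternatives 0.00157 to 0.816), and Junb transcripts have a GC content of 62.6% against a median of 50.6% over tested genes.

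Jund, the JUN protein usually present in resting cells and less dependent on stimulation (NM_001286944, chromosome 8, 70697739 to 70700616), showed another order of libraries. It was measured at 41.0, 13.3 and 23.6 CPM in the Ctrl libraries and 138.3, 100.1 and 59.8 CPM in the KO libraries. KO 1, the lowest KO library for Junb and Ier3, was the highest for Jund, and the groups did not overlap. At 1.93 (SE 0.468), its log2 fold change was the largest of the 10 (edgeR, adjusted p = 0.0404). It did not pass with GC offsets (1.40, adjusted p = 0.0933, range over 14 alternatives 0.00084 to 0.402), and its transcript has the highest GC content of the 10, 67.2%. The 2 Jund entries of the table carry the same counts.

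Jun, the strongest activator among the JUN proteins, was nearly constant across Ctrl and spread across KO (NM_010591, chromosome 4, 95049036 to 95052222, a single exon). It stood at 878.4, 779.9 and 842.1 CPM in the Ctrl libraries and at 643.3, 1310 and 1348 CPM in the KO libraries. KO 1 lay below every Ctrl library and the other KO libraries above, so the groups overlapped. Over all libraries Jun moved by 0.40 on the log2 scale (SE 0.319), which edgeR's test did not call (adjusted p = 0.428). Without KO 1 it was 0.74 and passed (adjusted p = 0.0354, range over 14 alternatives 0.0354 to 0.861).

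Fos, the partner of JUN proteins whose mRNA is the textbook immediate early transcript, was the most abundant of the 10 (NM_010234, chromosome 12, 85473890 to 85477274). The libraries of Fos showed 2103, 1900 and 2136 CPM in the Ctrl libraries and 1390, 2654 and 3037 CPM in the KO libraries. It ranked 13 by mean CPM among all genes in Ctrl and 17 in KO. KO 1 was below and KO 2 and KO 3 above all Ctrl libraries. Its log2 fold change of 0.21 (SE 0.322) did not pass edgeR's test (adjusted p = 0.70, range over 14 alternatives 0.0853 to 0.945).

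Egr1, a zinc finger factor induced through serum response factor (NM_007913, chromosome 18, 34861207 to 34864956), followed Fos across the libraries. It stood at 1933, 1791 and 1893 CPM in the Ctrl libraries and at 1144, 2312 and 2468 CPM in the KO libraries. The order of the KO libraries was that of Fos, with KO 1 below every Ctrl library. Egr1's log2 fold change, 0.08 (SE 0.322), was the smallest of the 10 (edgeR, adjusted p = 0.894), and its sign turned with GC offsets (−0.14), with scaling to endothelial markers (−1.13), in limma-voom (−0.0026) and without KO 2 (−0.02) or KO 3 (−0.05).

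Fosb, a FOS protein with a short splice form that lasts longer in cells (NM_001347586, chromosome 7, 19302696 to 19310118), had 223.9, 295.8 and 302.1 CPM in the Ctrl libraries and 226.8, 555.9 and 561.9 CPM in the KO libraries. KO 1 lay within the Ctrl range and the other KO libraries above it. The log2 fold change was 0.71 (SE 0.369; edgeR, adjusted p = 0.23), and without KO 1 it was 1.10 and passed (adjusted p = 0.0121, range over 14 alternatives 0.0121 to 0.485). The 2 entries of Fosb carry the same counts, so its splice forms were not separated.

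Fosl2, which encodes FRA-2 (NM_008037, chromosome 5, 32136472 to 32157840), behaved in the opposite way with respect to KO 1. It had 27.9, 39.9 and 39.6 CPM in the Ctrl libraries and 147.3, 51.7 and 42.2 CPM in the KO libraries. The groups did not overlap, but KO 3 lay close to the upper Ctrl libraries while KO 1 was at 4.12 times the Ctrl mean. The log2 fold change was 1.17 (SE 0.477; edgeR, adjusted p = 0.144, range over 14 alternatives 0.0648 to 0.912), and it was 0.46 without KO 1.

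Atf3, a stress-induced factor that pairs with JUN proteins and often represses (NM_007498, chromosome 1, 191170296 to 191183333), had 379.2, 338.7 and 349.8 CPM in the Ctrl libraries and 440.2, 1076 and 776.9 CPM in the KO libraries. The groups did not overlap. Its log2 fold change, 1.10 (SE 0.338), did not pass edgeR's test (adjusted p = 0.0723), but passed DESeq2 (1.15, adjusted p = 0.0197) and, without KO 1, edgeR (1.45, adjusted p = 0.00706). The range over 14 alternatives was 0.00706 to 0.798.

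Ier2, a short nuclear protein without a known DNA-binding domain (NM_010499, chromosome 8, 84661331 to 84662852, a single exon), had 1198, 762.5 and 967.5 CPM in the Ctrl libraries and 1122, 2255 and 2016 CPM in the KO libraries. KO 1 fell between the Ctrl libraries, so the groups overlapped. The log2 fold change was 0.88 (SE 0.331; edgeR, adjusted p = 0.119, range over 14 alternatives 0.015 to 0.508). Without KO 1 it was 1.20 and passed (adjusted p = 0.015), and with GC offsets it was 0.27.

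**Figure D2:**
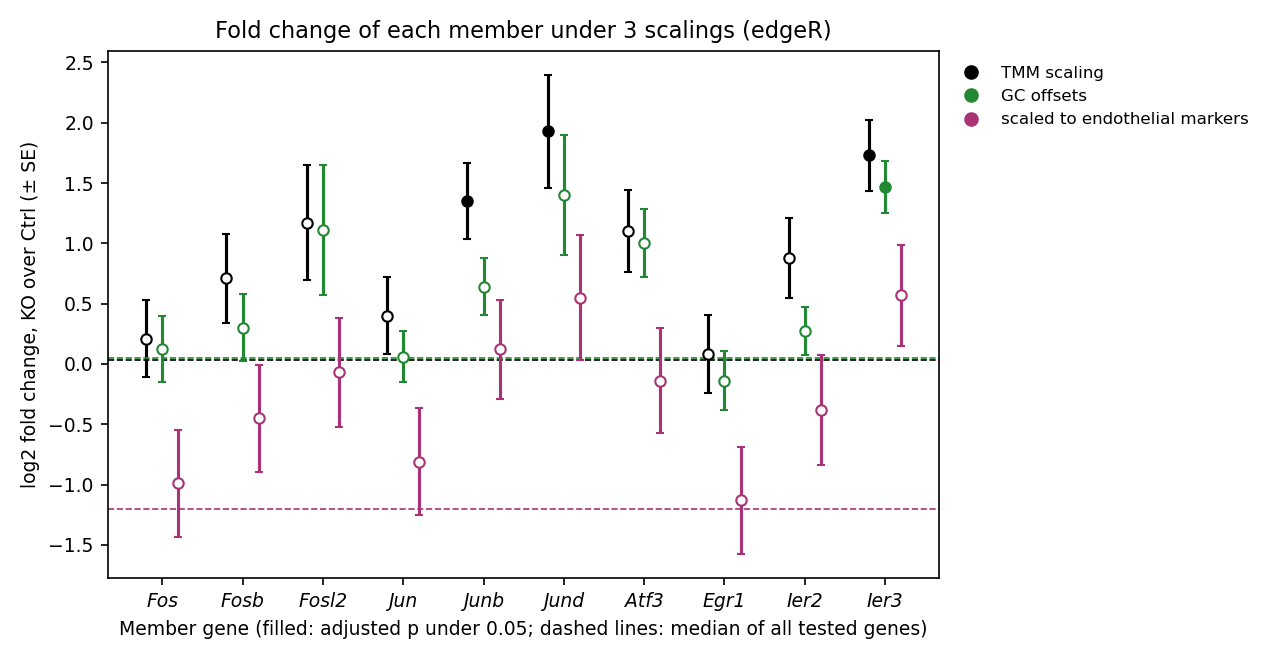
Log2 fold change (KO over Ctrl, ± SE, edgeR) of the 10 genes with TMM scaling, with GC offsets, and with libraries scaled to equal endothelial markers. Filled points passed an adjusted p of 0.05 and dashed lines give the median of all genes tested, which is −1.20 under the last scaling and 0.03 and 0.05 under the others.

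The groups did not overlap in 5 of the 10 genes (Fosl2, Junb, Jund, Atf3 and Ier3), in each case with KO higher, where this held for 19% of all genes tested. In KO 2 and KO 3 all 10 genes lay above every Ctrl library, whereas in KO 1 this held for 5, and 3 lay below every Ctrl library (Fos, Jun and Egr1). The 10 genes took 0.728% to 0.792% of all counts in Ctrl, 0.693% in KO 1, 1.22% in KO 2 and 1.22% in KO 3. The number past the test changed with the library left out, in the whole table as well as among the members, and the cause was not tested. Without KO 1, 7 passed edgeR's test (Fosb, Jun, Junb, Jund, Atf3, Ier2 and Ier3), where 15.2% of all genes were higher. Without KO 3, 2 passed (Jund and Ier3), where 3.02% of all genes were higher. Without any of Ctrl 1, Ctrl 2, Ctrl 3 or KO 2, 0 genes of the whole table passed edgeR's test. At an unadjusted p under 0.05 there were 5 members without Ctrl 1 (24.2% of all genes), 4 without Ctrl 2 (20.5%), 4 without Ctrl 3 (20.8%) and 5 without KO 2 (21.6%), all higher in KO, against 6 with all libraries (30.5%). With all libraries DESeq2 called 4 members, Atf3 in addition, where 12.6% of all genes were higher, and limma-voom called the same 3 as edgeR, where 6.09% were higher. In the authors' deposited table, adjusted over transcript entries, 6 members were under 0.05 (Fosl2, Junb, Jund, Atf3, Ier2 and Ier3), where 13.6% of its genes were higher.

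**Figure D3:**
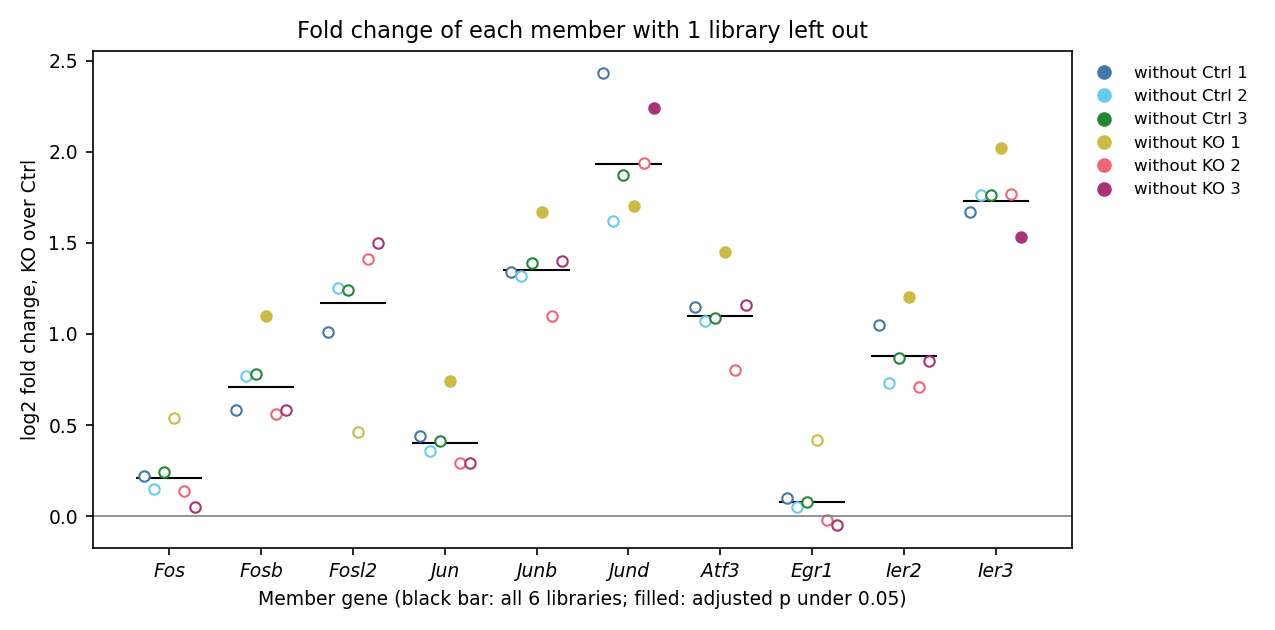
Log2 fold change of the 10 genes with each library left out in turn (edgeR), filled where the adjusted p was under 0.05, with a black bar at the value from all 6 libraries. Leaving out KO 1 raised Fos, Fosb, Jun, Junb, Atf3, Egr1, Ier2 and Ier3, and lowered Fosl2 and Jund.

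Ratios of counts within a library do not depend on how libraries are scaled, and they separated the groups for most members. They were chosen after the levels had been seen. Relative to Fos, the counts of 7 of the other 9 genes were higher in every KO library than in every Ctrl library (Fosb, Jun, Junb, Jund, Atf3, Ier2 and Ier3), where 13.2% of all genes were higher in this way. Egr1 was lower relative to Fos in every KO library, where 15.2% of all genes were lower, and Fosl2 overlapped. The ratio of Junb to Fos was 0.381, 0.412 and 0.404 in the Ctrl libraries and 0.946, 1.06 and 0.700 in the KO libraries. The ratio of Ier3 to Fos went from 0.0496 ± 0.00573 in Ctrl to 0.146 ± 0.0191 in KO (SD, n = 3 each). That of Atf3 went from 0.174 ± 0.00898 to 0.326 ± 0.0753. These separations include KO 1, whose Fos was low. Fos has the lowest transcript GC content of the 10 (51.9%), and with GC offsets the difference of log2 fold changes from that of Fos went from 0.20 to −0.06 for Jun, from 0.68 to 0.15 for Ier2, from 0.50 to 0.18 for Fosb and from 1.15 to 0.52 for Junb. It stayed at 0.87 or above for Atf3, Ier3 and Jund.

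**Figure D4:**
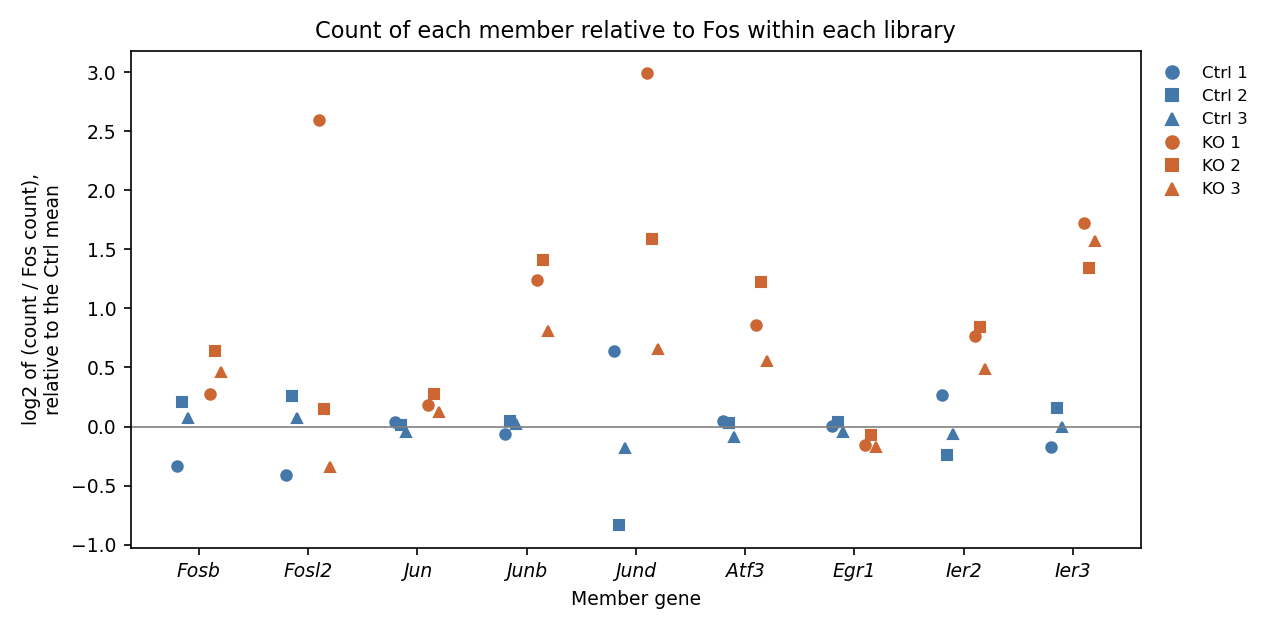
Count of each gene divided by the Fos count of the same library, as log2 relative to the Ctrl mean. KO lies above Ctrl in 7 of the 9 genes, below in Egr1, and overlaps it in Fosl2.

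The shares of Junb and Jun in the JUN family separated the libraries of both groups as well, though without passing a test. The count ratio of Junb to Jun was 0.913, 1.00 and 1.03 in the Ctrl libraries and 2.04, 2.15 and 1.58 in the KO libraries. Relative to Jun, where 10.2% of all genes were higher and 21.3% lower without overlap, 4 of the 9 other members were higher and 2 lower. Per kilobase of exonic length, Junb made 62.0 ± 2.03% of JUN family mRNA in Ctrl and 73.5 ± 2.81% in KO (SD, n = 3). Jun made 35.9 ± 1.07% and 22.0 ± 3.33%. The share of Jund, 2.1 ± 1.1% and 4.5 ± 3.3%, overlapped between the groups. The JUN family summed to 728 ± 37.6 CPM per kilobase in Ctrl and 1557 ± 512 in KO without overlap, and the FOS family to 1052 ± 57.9 and 1255 ± 452 with overlap. The ratio of FOS to JUN family mRNA was 1.43, 1.44 and 1.46 in the Ctrl libraries and 0.736, 0.701 and 0.980 in the KO libraries. Each of these ratios without overlap reached an exact two-sided permutation p = 0.1 with n = 3, the smallest that 3 against 3 allows, and 0.12 after Benjamini-Hochberg adjustment over 18 quantities. Junb has a higher transcript GC content than Jun (62.6% and 55.5%), and with GC offsets their log2 fold changes were 0.64 and 0.06.

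Per kilobase of exonic length the order of mean levels in Ctrl was Fos (971 ± 60.7 CPM per kilobase, SD, n = 3), Ier2 (641 ± 143), Egr1 (617 ± 24.1), Junb (451 ± 23.4), Jun (261 ± 15.6), Atf3 (179 ± 10.6), Ier3 (89.4 ± 6.56), Fosb (75.5 ± 11.97), Jund (15.6 ± 8.39) and Fosl2 (5.47 ± 1.05). Ier2 and Egr1 did not differ beyond their spread there. In KO the first 3 places went to Ier2 (1181 ± 392), Junb (1153 ± 415) and Fos (1120 ± 409), which did not differ beyond their spread. Egr1 (651 ± 238), Atf3 (385 ± 160), Jun (345 ± 124) and Ier3 (297 ± 97.3) followed, before Fosb (124 ± 52.8), Jund (59.6 ± 23.5) and Fosl2 (12.3 ± 8.90). The SD is that between libraries, and the order of the genes within each library was not tested. Jund has 1668 exonic bases in GENCODE and a deposited length of 2877, so its level per kilobase depends on the annotation, and it stays ninth by either length. Jun, Junb, Jund and Ier2 have 1 exon in GENCODE, all 10 lie above the median GC content of tested transcripts, and none overlaps another gene of the RefSeq annotation. The nearest neighbour in the table is Flot1, 409 bases from Ier3.

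Genes for other AP-1 subunits and partners of the same protein class numbered 12 among those tested. By edgeR's test 3 of the 12 rose and 0 fell (5.85% and 4.44% of all genes). The median log2 fold change of the 12 was 0.66. Maff, a small MAF protein, rose from 31.5 ± 5.49 to 89.7 ± 17.1 CPM (log2 fold change 1.51, adjusted p = 0.0228). Batf, a subunit known from lymphocytes, rose from 2.52 ± 0.511 to 13.1 ± 8.05 CPM (2.38, adjusted p = 0.0425), with 4.00 CPM in KO 1 and 19.2 and 16.2 in the others. Fosl1, which encodes FRA-1, rose from 5.75 ± 1.64 to 18.2 ± 7.47 CPM (1.66, with an adjusted p just under 0.05). Atf2, a partner of JUN proteins, was at −1.03 without passing edgeR's test (adjusted p = 0.0709). Limma-voom called 1 of the 12 higher, where 6.09% of all genes were higher. Scaled to endothelial markers, 0 were higher and 2 lower, where 45.1% of all genes were lower. The median of this list was then −0.57, against −1.20 for all genes.

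Of 45 other immediate early genes 11 rose and 0 fell by edgeR's test (5.85% and 4.44% of all genes). Their median log2 fold change was 0.85. Scaled to endothelial markers, 2 were higher and 6 lower, where 0.469% of all genes were higher and 45.1% lower. The median of the list was then −0.38, against −1.20 for all genes. Those with the smallest p were Rhob, a small GTPase gene (2.04, from 81.8 ± 7.28 to 338 ± 80.2 CPM), the flow-induced factor Klf2 (2.48), the phosphatase Dusp2 (2.37) and Nfkbia, the inhibitor of NF-κB (2.05), with adjusted p from 0.0211 to 0.0218 in edgeR. In these 4 genes KO 1 lay above every Ctrl library. Nfkbia had 1328, 2946 and 2385 CPM in the KO libraries against 496, 581 and 529 CPM in the Ctrl libraries. Egr2 and Egr3, named for their kinship with Egr1 after their values were seen, had log2 fold changes of 0.17 and 0.42 and did not pass (edgeR, adjusted p = 0.81 and 0.57).

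Upstream of these genes, 1 of 11 serum response and cAMP response factor genes rose and 0 fell by edgeR's test: Elk3, an ETS partner of serum response factor that is abundant in endothelium (1.36, adjusted p = 0.0435). Srf (0.78), Creb1 (−1.03) and Mrtfb (0.62) did not pass (adjusted p from 0.147 to 0.195). Of 21 MAP kinase pathway genes 3 rose and 0 fell by edgeR's test, by which 5.85% of all genes were higher. They were Mapk3, which encodes ERK1 (1.61, from 41.5 ± 7.66 to 126 ± 23.9 CPM), Mapkapk2, a kinase below p38 (1.60), and Map2k3, a kinase above p38 (1.16), with adjusted p from 0.0219 to 0.0356. Map3k1, a kinase above JNK, had −1.54 and did not pass (adjusted p = 0.0531). The medians were 0.32 for the serum and cAMP response factors and 0.35 for the MAP kinase genes. Scaled to endothelial markers, 0 of the 11 serum and cAMP response factor genes were higher and 4 lower (median −0.92). Of the 21 MAP kinase genes 0 were higher and 10 lower (median −0.83). With this scaling 45.1% of all genes were lower, and the median of all genes was −1.20.

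Among 18 tested genes often given as AP-1 targets, 9 rose and 0 fell by edgeR's test (5.85% and 4.44% of all genes). Of their estimates 18 of 18 were above 0, with a median log2 fold change of 1.56. Scaled to endothelial markers, 4 were higher and 0 lower, with a median of 0.36, where 0.469% of all genes were higher and 45.1% lower. The smallest p were those of the cyclin gene Ccnd1 (1.23, from 85.4 ± 1.99 to 201 ± 9.99 CPM), the protease inhibitor Timp1 (1.53), the filament gene Vim (1.81) and the chemokine Cxcl1 (2.35), with adjusted p from 0.0224 to 0.0233. Vim is also in the glial marker list. Several of these genes are known targets of other factors too, and binding of AP-1 was not measured.

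Other lists moved with the groups. Of 15 endothelial markers 10 rose and 0 fell by edgeR's test, and their summed level was 3778 to 5752 CPM in Ctrl and 11710 to 15800 CPM in KO without overlap, with Ramp2 (1.65) and Erg (1.63) at the smallest p. The 14 microglial markers summed to 1407, 1787 and 282 CPM in the Ctrl libraries and 275, 13830 and 2726 CPM in the KO libraries. No marker of either list was at 0 in any library. KO 1 held the least of the microglial markers and was the lowest library for Fos, Jun and Egr1, but the highest for Fosl2 and Jund. Ctrl 3 held nearly as little (282 CPM against 275), yet was the lowest library for 0 members and above the Ctrl mean for 7. KO 2 held the most microglial markers and was the highest library for Junb, Atf3 and Ier2. KO 3 was the highest for Fos, Fosb, Jun, Egr1 and Ier3. Without KO 2 the median log2 fold change was 0.76 for the 10 members and 0.29 for the microglial markers, and without KO 1 it was 1.15 and 2.63. Photoreceptor markers were lowest in KO 1 (4995 CPM) and highest in Ctrl 1 (34890 CPM). Of the 14 photoreceptor markers 2 fell by edgeR's test (0 with GC offsets), as did 3 of 12 inner retinal neuron markers. Erythroid markers had the highest median log2 fold change of these lists, 2.91, with 5 of 6 higher, and summed to 62.1 to 98.2 CPM in Ctrl and 459.9 to 685.6 CPM in KO. They were led by Hbb-bs and Hbb-b1 (3.08 each), near-identical globin genes with nearly the same value in every library. Hba-a1 and Hba-a2 (2.83 each) had the same value in every library. The calls and sums of this list therefore count such values more than once. With endothelial scaling 5 erythroid markers stayed higher (median 1.76), where 0.469% of all genes were higher. Also higher by edgeR's test were 4 of 12 Müller glia and astrocyte markers (median 1.02), 2 of 7 ganglion cell markers (1.29), 2 of 4 platelet markers (1.44) and 1 of 12 mural cell markers (1.29). Estimates were above 0 for 8 of the 12 glial and 5 of the 7 ganglion cell markers, and below 0 for the rest of these 2 lists. They were above 0 for all platelet and mural cell markers tested, and for 8277 of all 16217 genes. Markers at 0 in at least 1 library were Slc4a1 (erythroid), Aqp4 (glial), Thy1 (ganglion cell), Gp9 (platelet) and Slc32a1, Gad1, Calb1 and Lhx1 (inner retinal neuron). The part of all these markers in the members' levels was not tested.

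Heat shock genes rise together with immediate early genes when tissue is dissociated. Of 14 heat shock genes 1 was higher and 0 lower by edgeR's test, by which 5.85% of all genes were higher. Their median log2 fold change was 0.54. Scaled to endothelial markers, 0 were higher and 5 lower, where 45.1% of all genes were lower. The median of the list was then −0.70, against −1.20 for all genes. The gene that rose was Hspb1 (2.41, from 3.69 ± 0.768 to 19.6 ± 4.64 CPM, adjusted p = 0.0211). Hspe1 (1.00) and Hsp90ab1 (0.80) did not pass (adjusted p = 0.0603 and 0.0633). The summed level of the list was 2420 to 3045 CPM in Ctrl and 3363 to 4419 CPM in KO. The part of cell handling in the members' levels was not tested.

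**Figure D5:**
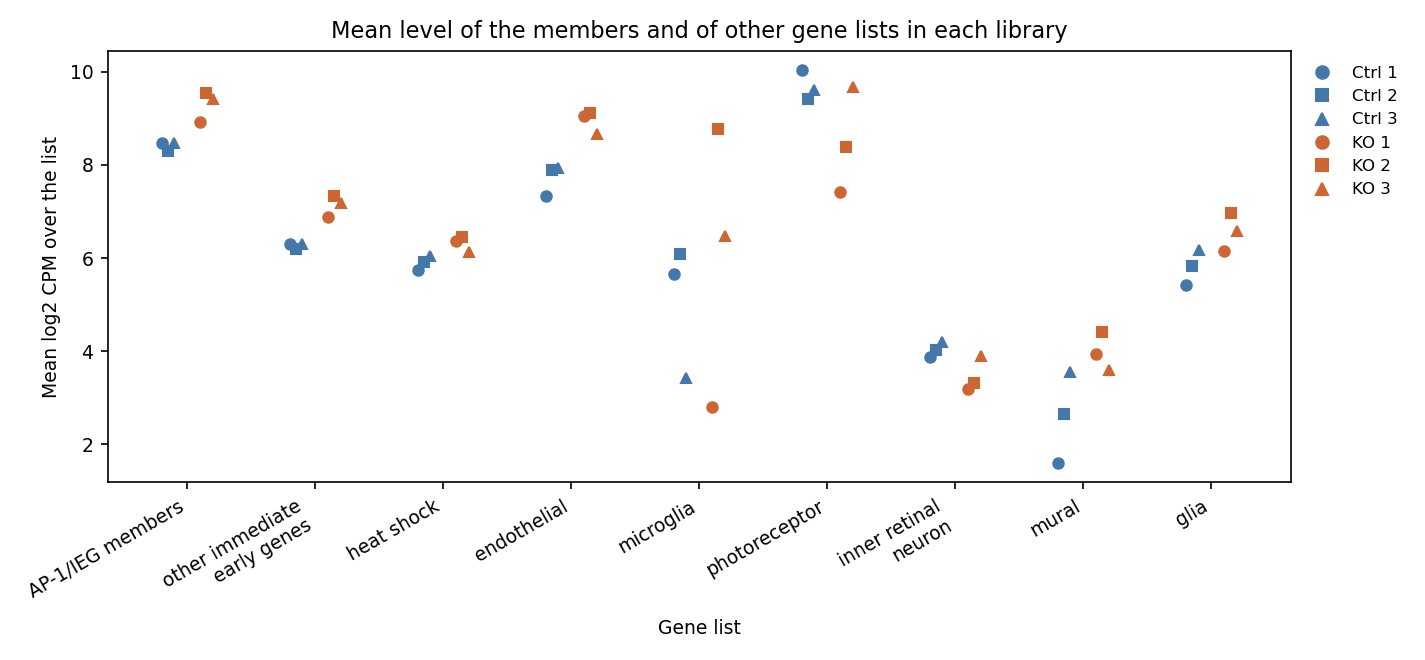
Mean log2 CPM of the 10 genes and of other gene lists in each library. The 10 genes average 8.29 to 8.47 in Ctrl and 8.92, 9.54 and 9.41 in KO 1, 2 and 3, while microglial markers range from 2.81 in KO 1 to 8.77 in KO 2.

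Outside the 10 genes, the profiles most like their mean profile over the 6 libraries were those of Plekhh3, Rgs16, Sh3glb2, Cdc37, Cbx6 and Mfge8. Likeness was the root mean square distance between centred log2 CPM values over 6 libraries, and it was 0.053 to 0.067 log2 units for these 6 among 12342 genes of at least 5 CPM. The distances of the members from their own mean profile ran from 0.186 (Ier2) and 0.206 (Atf3) to 0.769 (Fosl2) and 0.855 (Jund). The 6 genes were picked as the closest of 12342 and the members were not, so these distances cannot be compared.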

How the data were processed

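The authors deposited 1 table of 34035 RefSeq transcript entries, per the file headers with raw counts per library, counts divided by a size factor (a signal), RPKM, and DESeq2 values: a log2 fold change, a Wald statistic (a score), a p-value and an adjusted p-value. Named without roles in the submitters' processing notes are the build mm10, STAR, Trimmomatic 0.36, deepTools, edgeR and DESeq2. The counting tool is not given in the sources used here. A count column has a name that gives the Ctrl group but an irregular number. It was taken as Ctrl 3, the number left over and that of the normalized column to which its ratio is constant, and this number bears only on the replicate block and on the names of libraries. The deposited length is a genomic span, so RPKM was not used. Counts were not separated by strand.

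The longest entry of each symbol was used (19124 genes). KO and Ctrl libraries were compared in edgeR 4.0.16 (R 4.3.3): TMM scaling, filterByExpr, quasi-likelihood test, two-sided, Benjamini-Hochberg adjustment over 16217 genes. The SE is the log2 fold change divided by the square root of F. GC content came from GENCODE M21 (99.2% of tested genes). DESeq2 1.42.0, limma 3.58.1, other scalings, filters, entries and left-out libraries were alternatives. Members and lists were chosen with earlier results of these data known. At most 4 genes of each list (2 of a marker list) were named, by smallest p, besides all members and, by profile, 6 further genes. Outside this rule, Egr2 and Egr3, Hba-a1 and Hba-a2, and the markers at 0 were named after their values were seen. The rule for lists names 1 further gene, which is not reported here.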

Additional observations from a re-analysis of the deposited data

How the results depend on the processing

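Of 14 alternatives, the count of members past the threshold (3) was within 1.5 times in DESeq2 (4), limma-voom, with DESeq2's size factors, without a filter on low counts and with the entry of the highest summed count. It was 1 with GC offsets (Ier3, with 6.63% of all genes higher), 0 with libraries scaled to equal endothelial markers (at an unadjusted p under 0.05, Fos and Egr1, both lower, where 54.6% of all genes passed in either direction) and 0 to 7 with 1 library left out. Genes past the threshold in the whole table numbered 1668, against 3556 in DESeq2, 7397 with endothelial scaling and 0 to 4927 with 1 library left out. That scaling left 1.03% of called genes higher, against 56.8%. With it the log2 fold changes of Fos (−0.99), Fosb (−0.45), Fosl2 (−0.07), Jun (−0.81), Atf3 (−0.14), Egr1 (−1.13) and Ier2 (−0.38) turned negative. Egr1 also did with GC offsets (−0.14), in limma-voom (−0.0026) and with 1 library left out (−0.05 without KO 3 to 0.42 without KO 1). The cause was not tested. Libraries with equal replicate numbers had correlations across genes of deviations from the group mean of −0.394, 0.073 and −0.264. Those with unlike numbers ran from −0.326 to 0.415. With 3 libraries in a group such values cannot decide whether equal numbers share a batch, and the main fit used the numbers as names only. With the replicate number as a block, 1 gene of the table and 0 members passed edgeR's test (4 members at an unadjusted p under 0.05, with 21.0% of all genes). Fits with 1 library left out called 4927 genes without KO 1, 866 without KO 3 and 0 without any of the others.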
